A study of Mus musculus with 16 samples.

Results

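The genes described here are 10 outputs of the circadian clock in the mouse heart: Dbp, Tef, Hlf, Nfil3, Bhlhe40, Bhlhe41, Ciart, Wee1, Usp2 and Klf15. They were selected by name as known direct outputs of the clock and taken as 10 of the 55573 genes in the count table, and they were chosen from a re-analysis of the same hearts in which differences between the groups in clock genes had already been seen. The differences between groups below are therefore a description, with errors and calls and with no p-value printed. RNA was sequenced from ventricular tissue of 16 male mice in 4 groups of 4, and each library came from 1 heart. All 16 mice carried the genotype aMHC-MerCreMer;Trbp-Flox/Flox, in which a Cre recombinase that tamoxifen switches on is driven by the cardiomyocyte alpha-MHC promoter and both copies of the Trbp gene (Tarbp2, a double-stranded RNA-binding partner of Dicer) are floxed. Control mice received corn oil and Trbp-cKO mice received 30 mg/kg tamoxifen once a day for 5 days from the age of 4 weeks, so that the deletion, tamoxifen and the active Cre cannot be told apart in these groups. Tamoxifen-treated mice without Cre, which the study also used, were not analysed here. Sham surgery or transverse aortic constriction (TAC), a ligature around the aorta that loads the heart with pressure, was then performed. Hearts were collected about 8 weeks after surgery, at about 16 weeks of age, which gave the groups control sham, control TAC, Trbp-cKO sham and Trbp-cKO TAC. In the study, mice were followed for up to 8 weeks, or until severe heart failure made euthanasia necessary. The hour of the day at which each heart was collected is not given in the sources used here, so a difference between groups in a clock gene and a difference in the hour of collection cannot be told apart.

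Nearly every cell of the body runs a circadian clock. CLOCK pairs with ARNTL (BMAL1) on E-boxes and switches on the Period and Cryptochrome genes, whose proteins then shut the pair down, while the nuclear receptors of the Nr1d group repress Arntl itself. The same E-boxes drive many output genes, so that the level of an output gene such as Dbp in a tissue depends strongly on the time of day. Dbp, Tef and Hlf encode the PAR bZIP factors, which activate genes through D-boxes, and Nfil3 encodes a repressor that binds the same D-boxes. Bhlhe40, Bhlhe41 and Ciart encode repressors that act on CLOCK and ARNTL. Wee1 encodes a kinase that holds back entry into mitosis, Usp2 a deubiquitinase, and Klf15 a factor that links the clock of the heart to amino acid and lipid use and to cardiac electrophysiology.

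The promoters of these genes were searched for the letters of E-boxes and D-boxes, the motifs named above. Apart from a variant of the E-box, no other motif was searched, so sites of other kinds would not be seen. The windows ran from 250 bases before to 50 bases after the start site, and came from RefSeq on GRCm38.p6, which gave 9 promoters for 8 of the 10 genes (2 for Tef). Bhlhe40 and Wee1 had no entry. The E-box CACGTG, which reads the same on both strands, was found in 5 of these 9 promoters and in 7.15% of 32851 mouse promoters of this length. Ciart held it at 3 places, 116, 58 and 44 bases before the start site, and Klf15 also held it at 3, at 228, 172 and 3 bases before it. Each Tef promoter held it once, at 127 and 138 bases before the start site, as did Bhlhe41 at 153. The variant CACGTT, searched on both strands and found in 4.685% of promoters, and the D-box TTATGTAA (TTACATAA on the other strand), found in 0.9376%, did not occur in any of the 9 windows. These letters were absent from the windows of Dbp, Hlf, Nfil3 and Usp2, which says nothing of sites outside 300 bases. The windows with an E-box are shown 5′ to 3′ because they carry the letters through which the clock is known to act, and that of Dbp is shown for contrast, with every E-box in capitals. They lie on GRCm38.p6 at chr3:95882179-95882478 (minus strand, Ciart), chr6:90462326-90462625 (plus, Klf15), chr15:81802423-81802722 and chr15:81811164-81811463 (plus, Tef), chr6:145865371-145865670 (minus, Bhlhe41) and chr7:45704997-45705296 (plus, Dbp).
Ciart: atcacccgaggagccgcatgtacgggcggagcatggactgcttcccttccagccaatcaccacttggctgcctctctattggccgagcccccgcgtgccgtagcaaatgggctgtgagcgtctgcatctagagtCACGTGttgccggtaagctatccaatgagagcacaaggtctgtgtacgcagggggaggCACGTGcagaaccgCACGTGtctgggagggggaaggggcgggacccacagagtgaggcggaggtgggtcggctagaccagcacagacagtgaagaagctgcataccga
Klf15: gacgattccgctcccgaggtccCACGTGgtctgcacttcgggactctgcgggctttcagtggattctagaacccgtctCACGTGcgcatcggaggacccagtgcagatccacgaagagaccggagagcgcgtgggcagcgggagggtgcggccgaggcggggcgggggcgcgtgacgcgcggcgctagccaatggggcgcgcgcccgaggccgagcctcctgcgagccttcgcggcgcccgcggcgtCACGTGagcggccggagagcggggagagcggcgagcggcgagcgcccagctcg
Tef, first start site: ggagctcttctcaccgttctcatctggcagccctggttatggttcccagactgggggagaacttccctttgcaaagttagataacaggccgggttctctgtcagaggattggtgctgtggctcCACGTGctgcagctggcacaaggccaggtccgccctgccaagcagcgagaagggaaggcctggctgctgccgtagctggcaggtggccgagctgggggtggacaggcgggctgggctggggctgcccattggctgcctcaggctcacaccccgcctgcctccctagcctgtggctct
Tef, second start site: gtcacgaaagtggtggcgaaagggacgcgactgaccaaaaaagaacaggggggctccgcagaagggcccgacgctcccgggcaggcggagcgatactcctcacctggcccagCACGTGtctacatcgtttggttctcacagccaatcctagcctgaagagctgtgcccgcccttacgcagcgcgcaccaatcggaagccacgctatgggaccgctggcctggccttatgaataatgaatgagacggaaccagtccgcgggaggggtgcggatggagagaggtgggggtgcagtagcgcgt
Bhlhe41: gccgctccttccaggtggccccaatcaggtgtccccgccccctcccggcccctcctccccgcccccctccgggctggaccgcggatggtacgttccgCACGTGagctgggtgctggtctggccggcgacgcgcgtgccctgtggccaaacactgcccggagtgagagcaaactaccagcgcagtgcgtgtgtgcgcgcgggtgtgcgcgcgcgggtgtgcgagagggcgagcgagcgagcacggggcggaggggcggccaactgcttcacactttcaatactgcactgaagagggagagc
Dbp: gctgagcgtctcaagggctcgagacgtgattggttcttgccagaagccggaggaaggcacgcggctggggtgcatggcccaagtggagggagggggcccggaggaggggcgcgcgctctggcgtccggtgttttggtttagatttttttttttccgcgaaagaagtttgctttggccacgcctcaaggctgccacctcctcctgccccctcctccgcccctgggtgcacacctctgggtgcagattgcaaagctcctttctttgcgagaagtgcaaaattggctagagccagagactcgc

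The deposited values were counts per gene, and totals ran from 45166994 to 68274222 per heart. Levels are given as CPM, each count relative to the total of its library, with TMM adjustment, and differences as log2 fold changes with their standard errors (SE) from one edgeR quasi-likelihood fit of all 16 hearts. A gene was called when its Benjamini-Hochberg adjusted p was at most 0.05 and its absolute log2 fold change at least 0.8. All 10 genes were among the 19955 tested. Tarbp2 itself stood at 21.1 to 33.3 CPM in the control hearts and at 7.14 to 11.4 CPM in the Trbp-cKO hearts, and all 6 cardiomyocyte markers listed (Myh6, Actn2, Tnnt2, Tnni3, Ryr2 and Pln) were detected in every group. Replicates 1 and 2 of control TAC stood apart. Mitochondrial transcripts took 38.2% and 38.8% of their counts, against 18.2% to 26.3% in the other 14 hearts, and their cardiomyocyte markers summed to 17542.5 and 13558.5 CPM against 22546 to 40124 CPM in the others. Their endothelial markers (Pecam1, Cdh5, Kdr, Tie1 and Emcn) summed to 1179 and 1210 CPM, against 507 to 974 CPM in the others. Fibroblast markers summed to 1184 and 1165 CPM in these hearts, against 702 and 797 CPM in control TAC replicates 3 and 4. Called values that rest on control TAC are therefore given with and without these 2 hearts, which leaves 2 hearts in that group. The counts of the hearts left, replicates 3 and 4, also differed, with a mean chi-square per gene of 272.8 between them. Between replicates 1 and 2 it was 37.12. Trbp-cKO TAC replicate 4 also stood apart from its group. Its counts differed from those of the other 3 hearts with a mean chi-square per gene of 320.5 to 402.6, against 45.27 to 66.33 among those 3, its cardiomyocyte markers had the lowest sum of the group (22546 CPM) and its fibroblast (1389 CPM) and endothelial markers (906 CPM) the highest. Without it, Dbp, Hlf and Nfil3 were still the 3 genes called after TAC among Trbp-cKO hearts. In ventricle RNA, fewer cells of a type and less RNA per cell cannot be told apart.

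Per kilobase of exon, the level in control sham hearts was highest for Bhlhe40 (18.8 ± 1.86 CPM per kb, SD, n = 4) and Klf15 (17.2 ± 4.08). Usp2 (14.3 ± 1.44), Tef (11.9 ± 0.79), Dbp (10.2 ± 2.40) and Nfil3 (9.16 ± 1.11) followed, and from Bhlhe40 to Nfil3 each gene overlapped the next in the order heart by heart. A step without overlap separated Nfil3 from Bhlhe41 (3.40 ± 0.45), Wee1 (2.89 ± 0.29), Ciart (2.77 ± 1.07) and Hlf (2.32 ± 0.24), and within these 4 each again overlapped the next. In Trbp-cKO sham hearts the order was another one. Dbp came first at 55.9 ± 5.46 CPM per kb, Tef second at 24.4 ± 1.53 and Nfil3 last at 2.80 ± 0.21, and each of these steps was free of overlap with the neighbouring gene. Over all 16 hearts, Dbp had the widest range of the 10 genes, 9.00-fold from its lowest to its highest heart, and Bhlhe40 the narrowest, 2.42-fold.

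**Figure D1:**
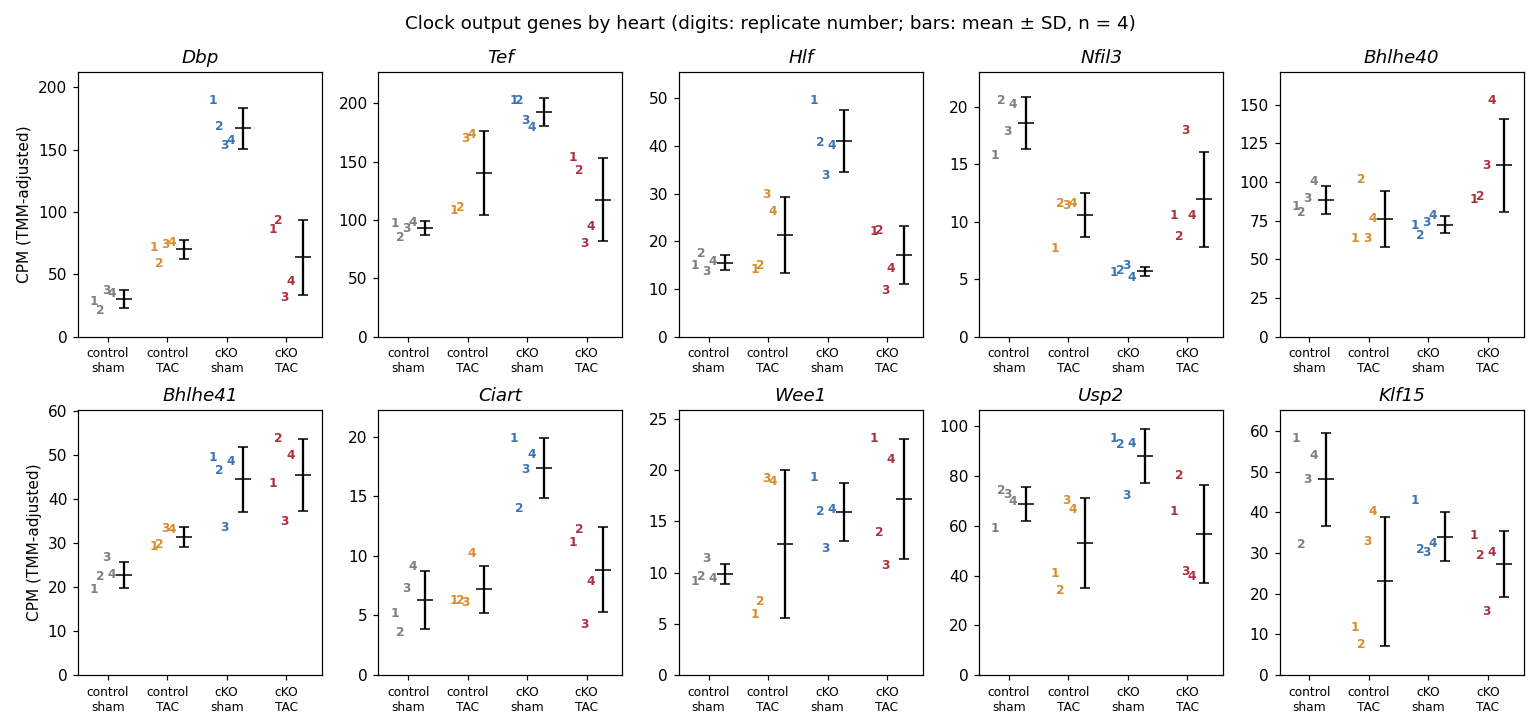
CPM on TMM-adjusted library sizes (vertical axes, linear from 0) of the 10 clock output genes in each heart, by group (control sham, control TAC, Trbp-cKO sham labelled cKO sham, Trbp-cKO TAC labelled cKO TAC); each digit is the replicate number of 1 heart and the bars give the mean ± SD of 4 hearts. Dbp ran from 21.1 CPM in a control sham heart to 189.7 CPM in a Trbp-cKO sham heart, and in control TAC the replicates 1 and 2 lay below 3 and 4 for Dbp, Tef, Hlf, Bhlhe41, Wee1, Usp2 and Klf15.

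Among the PAR bZIP activators, Dbp (chr7:45705088-45710203, plus strand) gave 28.6, 21.1, 37.0 and 35.0 CPM in control sham replicates 1 to 4 and 71.4, 59.1, 73.7 and 75.9 CPM in control TAC. It gave 189.7, 169, 153 and 157 CPM in Trbp-cKO sham and 85.6, 93.2, 31.8 and 43.9 CPM in Trbp-cKO TAC. The 4 Trbp-cKO sham hearts were above all 12 others, and the Trbp-cKO TAC hearts fell into a higher pair and a lower pair that reached down to the control sham level. Tef (chr15:81802421-81826863, plus strand) gave 97.5, 84.8, 93.0 and 98.2 CPM in control sham and 108, 111, 170.1 and 173 CPM in control TAC. It gave 203, 202, 185 and 179 CPM in Trbp-cKO sham and 154, 143, 79.9 and 94.5 CPM in Trbp-cKO TAC. Here both TAC groups were split into pairs, with replicates 3 and 4 high in control TAC and low in Trbp-cKO TAC. Hlf (chr11:90336536-90390895, minus strand) gave 15.0, 17.5, 13.7 and 15.9 CPM in control sham and 14.2, 14.9, 29.9 and 26.4 CPM in control TAC. It gave 49.6, 40.7, 33.7 and 40.0 CPM in Trbp-cKO sham and 22.1, 22.3, 9.80 and 14.4 CPM in Trbp-cKO TAC. As for Tef, the highest group was Trbp-cKO sham and each TAC group held a high and a low pair.

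Nfil3 (chr13:52967209-52981073, minus strand), the repressor at the sites that the PAR bZIP factors use, lay the other way round. It gave 15.7, 20.6, 17.8 and 20.1 CPM in control sham and 7.67, 11.6, 11.4 and 11.6 CPM in control TAC. It gave 5.61, 5.75, 6.19 and 5.15 CPM in Trbp-cKO sham and 10.5, 8.68, 17.9 and 10.6 CPM in Trbp-cKO TAC. Trbp-cKO sham was the lowest group with no overlap with any other, and Trbp-cKO TAC replicate 3 was the only heart of its group within the range of control sham.

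Of the repressors that act on CLOCK and ARNTL, Ciart (chr3:95878503-95882251, minus strand) gave 5.15, 3.54, 7.28 and 9.08 CPM in control sham and 6.27, 6.28, 6.09 and 10.2 CPM in control TAC. It gave 19.8, 13.9, 17.2 and 18.5 CPM in Trbp-cKO sham and 11.1, 12.2, 4.25 and 7.81 CPM in Trbp-cKO TAC. All 4 Trbp-cKO sham hearts were above the 12 others, which overlapped. Bhlhe41 (chr6:145858243-145865558, minus strand) gave 19.4, 22.4, 26.7 and 22.8 CPM in control sham and 29.2, 29.7, 33.4 and 33.2 CPM in control TAC. It gave 49.5, 46.6, 33.5 and 48.6 CPM in Trbp-cKO sham and 43.5, 53.8, 34.8 and 49.8 CPM in Trbp-cKO TAC. Control sham, control TAC and the Trbp-cKO hearts formed 3 steps without overlap, and the Trbp-cKO groups covered nearly the same range after sham and after TAC. Bhlhe40 (chr6:108660629-108666925, plus strand) gave 84.2, 80.1, 89.1 and 100.3 CPM in control sham and 63.7, 102, 63.2 and 76.4 CPM in control TAC. It gave 71.8, 65.4, 74.2 and 78.5 CPM in Trbp-cKO sham and 88.5, 90.8, 111 and 153 CPM in Trbp-cKO TAC. Its 2 highest hearts were Trbp-cKO TAC replicates 3 and 4, and Trbp-cKO sham lay below control sham without overlap.

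Wee1 (chr7:110122046-110143286, plus strand) gave 9.18, 9.62, 11.3 and 9.45 CPM in control sham and 5.93, 7.19, 19.2 and 18.8 CPM in control TAC. It gave 19.2, 15.9, 12.3 and 16.2 CPM in Trbp-cKO sham and 23.1, 13.9, 10.6 and 21.05 CPM in Trbp-cKO TAC. The control TAC hearts lay on both sides of control sham, 2 below and 2 above. Usp2 (chr9:44067021-44095627, plus strand) gave 58.8, 74.4, 72.5 and 69.7 CPM in control sham and 40.8, 34.2, 70.0 and 66.7 CPM in control TAC. It gave 95.1, 92.8, 72.0 and 92.9 CPM in Trbp-cKO sham and 65.7, 80.3, 41.8 and 39.5 CPM in Trbp-cKO TAC. Each TAC group again held 2 hearts within or above the control sham range and 2 below it. Klf15 (chr6:90462576-90475238, plus strand) gave 58.2, 32.2, 48.0 and 54.0 CPM in control sham and 11.7, 7.59, 32.8 and 40.3 CPM in control TAC. It gave 43.0, 30.8, 30.0 and 32.4 CPM in Trbp-cKO sham and 34.4, 29.3, 15.6 and 30.1 CPM in Trbp-cKO TAC. The 2 lowest Klf15 levels of the series were those of control TAC replicates 1 and 2.

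The first comparison set the deletion groups side by side in hearts without pressure overload. In Trbp-cKO sham against control sham, 6 of the 10 genes were called, against 0.967% of the 19955 genes tested. Dbp was 5.50-fold higher (167 ± 16.4 against 30.4 ± 7.18 CPM, SD, n = 4 each; log2 fold change 2.46, SE 0.29). The other PAR bZIP genes also rose, Tef by 1.04 (SE 0.20) and Hlf by 1.40 (SE 0.27) on the log2 scale. Ciart rose by 1.47 (SE 0.32) and Bhlhe41 by 0.96 (SE 0.15) on the same scale, and Nfil3 fell to 5.68 ± 0.43 from 18.6 ± 2.25 CPM, a log2 fold change of -1.71 (SE 0.20). The groups did not overlap for these 6 genes, nor for Wee1 (log2 fold change 0.68, SE 0.34, above) and Bhlhe40 (-0.29, SE 0.18, below), which makes 8 of 10 genes, against 14.7% of all genes tested. Usp2 (0.36, SE 0.24) and Klf15 (-0.50, SE 0.41) overlapped and were not called. The median absolute log2 fold change of the 10 genes was 1.00, against 0.18 over all genes tested. Dbp, Nfil3 and Bhlhe41 were called with any 1 heart left out, but the number called fell to 3 without control sham replicate 1 or 3 or without Trbp-cKO sham replicate 1 or 2. The summed smooth muscle markers (Acta2, Myh11, Tagln and Cnn1, each detected) moved with this comparison, at 444 to 672 CPM in Trbp-cKO sham and 208 to 346 CPM in control sham. Of the 4, Acta2 was called higher (log2 fold change 1.18, SE 0.27), while Cnn1 (0.26), Tagln (0.16) and Myh11 (0.03) overlapped and were not called. The call of Acta2 was lost in 10 of the 16 fits with 1 heart left out. Summed fibroblast markers (Dcn, Pdgfra, Lum, Tcf21, Col1a1 and Dpt, each detected) were at 750.0 to 975 CPM against 596 to 676 CPM, also without overlap, with 0 of the 6 called. The part of these markers in the result was not tested.

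TAC in control hearts was compared next. In control TAC against control sham, 2 of the 10 genes were called, against 3.75% of all genes tested. Dbp rose to 70.0 ± 7.50 from 30.4 ± 7.18 CPM, a log2 fold change of 1.20 (SE 0.28), and Nfil3 fell to 10.6 ± 1.93 from 18.6 ± 2.25 CPM, a log2 fold change of -0.81 (SE 0.19). The groups also did not overlap for Tef (log2 fold change 0.59, SE 0.20) and Bhlhe41 (0.46, SE 0.15), both higher and not called, so that 4 of 10 genes were free of overlap, against 17.4% of all genes tested. Klf15 had the log2 fold change farthest from 0 after Dbp, at -1.06, but its SE was 0.41 and its groups overlapped. Hlf (0.46, SE 0.27), Wee1 (0.37, SE 0.34), Ciart (0.20, SE 0.31), Bhlhe40 (-0.21, SE 0.18) and Usp2 (-0.38, SE 0.24) overlapped as well. With control TAC replicates 1 and 2 left out, Dbp (log2 fold change 1.299) and Nfil3 (-0.69) were no longer called among the 2 hearts left. Tef was then at 0.88, Wee1 at 0.94, Hlf at 0.86, Klf15 at -0.40 and Usp2 at -0.011, each further from the value of the full group than Dbp and Nfil3 were. The number called was 0 without control sham replicate 2 or control TAC replicate 1 and 1 without control sham replicate 1, 3 or 4 or control TAC replicate 2. Summed cardiomyocyte markers were at 13558.5 to 35429 CPM in control TAC and 37510 to 40124 CPM in control sham, and summed fibroblast markers at 702 to 1184 and 596 to 676 CPM, with Col1a1 called higher (1.21, SE 0.21; 0.85 and not called without control TAC replicates 1 and 2). Summed smooth muscle markers were at 130 to 187 and 208 to 346 CPM. Acta2 alone was lower (-1.27, SE 0.27, called; -1.39 and not called without these 2 hearts), while Myh11 (0.15), Tagln (0.53) and Cnn1 (0.65) lay on the other side of 0 and were not called. The 4 atrial markers listed give no shared direction here, since Nppa, also a heart stress gene, made up nearly all of their sum, Myl4 (-0.32) and Myl7 (0.78) were not called and Sln was not tested. The part of these markers in the values was not tested.

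Trbp-cKO TAC hearts were then set against Trbp-cKO sham hearts, to ask what TAC was accompanied by once Trbp was deleted, and 3 of the 10 genes were called, against 5.57% of all genes tested. Dbp fell to 63.6 ± 30.3 from 167 ± 16.4 CPM, a log2 fold change of -1.39 (SE 0.28), and Hlf to 17.1 ± 6.12 from 41.0 ± 6.51 CPM, a log2 fold change of -1.26 (SE 0.27). Nfil3 rose by 1.07 (SE 0.20) on the log2 scale, to 11.9 ± 4.11 CPM. Without overlap but not called, Tef (log2 fold change -0.71, SE 0.20) and Ciart (-0.98, SE 0.31) were lower in Trbp-cKO TAC and Bhlhe40 (0.61, SE 0.18) was higher, so that 6 of 10 genes were free of overlap, against 17.2% of all genes tested. Values for Usp2 (-0.64, SE 0.25), Klf15 (-0.32, SE 0.41), Wee1 (0.11, SE 0.33) and Bhlhe41 (0.03, SE 0.15) came from overlapping groups. The number called rose to 6 without Trbp-cKO TAC replicate 2, when Tef, Ciart and Usp2 were also called lower. Summed fibroblast markers were at 965 to 1389 CPM in Trbp-cKO TAC and 750.0 to 975 CPM in Trbp-cKO sham. Of the 6, Col1a1 rose (1.74, SE 0.21) and the other 5 ran from -0.38 (Dpt) to 0.19 (Dcn) and were not called. Of the smooth muscle markers, Cnn1 (1.29, SE 0.25) and Tagln (0.82, SE 0.24) were called higher, and Acta2 (-0.098) and Myh11 (-0.025) were not called. With 1 heart left out, the call of Tagln was lost in 8 of 16 fits and that of Cnn1 in 0. Of the atrial markers, Nppa (3.29, SE 0.29) and Myl4 (1.32, SE 0.21) were called higher. The part of these markers was not tested.

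The deletion was also compared among hearts under pressure overload, where the median absolute log2 fold change of the 10 genes was 0.27, against 0.24 over all genes tested. Between Trbp-cKO TAC and control TAC, 0 of the 10 genes were called by the edgeR quasi-likelihood test, and likewise 0 by DESeq2 and by edgeR's exact test, against 2.46% of all genes tested by the first. An unadjusted p under 0.05 was reached by 2 of them, Bhlhe41 and Bhlhe40, and Bhlhe41 also passed the adjusted threshold and missed the call by the size of its fold change alone. Bhlhe41 (45.5 ± 8.27 against 31.4 ± 2.23 CPM, log2 fold change 0.54, SE 0.15) was the only one of the 10 without overlap, against 10% of all genes tested, and Bhlhe40 had a log2 fold change of 0.54 (SE 0.18). Dbp (-0.14, SE 0.27), Tef (-0.26, SE 0.20), Hlf (-0.32, SE 0.26) and Nfil3 (0.18, SE 0.19) overlapped between the groups, as did Wee1 (0.42, SE 0.34), Ciart (0.29, SE 0.31), Klf15 (0.24, SE 0.41) and Usp2 (0.10, SE 0.24). With control TAC replicates 1 and 2 left out, Klf15, Usp2 and Wee1 took the other sign, at -0.43, -0.28 and -0.16. Hlf was then at -0.73, Tef at -0.56, Dbp at -0.25, Ciart at 0.11 and Nfil3 at 0.044, and the number called was again 0. Summed smooth muscle markers were at 394 to 835 CPM in Trbp-cKO TAC and 130 to 187 CPM in control TAC, with Acta2 (2.35, SE 0.28) and Cnn1 (0.90, SE 0.25) called higher. Without control TAC replicates 1 and 2, Acta2 was at 2.46 and still called and Cnn1 at 1.03 and not called, and the call of Cnn1 was lost in 14 of the 16 fits with 1 heart left out. The other smooth muscle markers, Tagln (0.44) and Myh11 (-0.15), were not called. Of the atrial markers, Nppa (2.09, SE 0.27) and Myl4 (1.90, SE 0.22) were called higher, also without these 2 hearts (2.48 and 2.26). Of the fibroblast markers Col1a1 was called higher (0.997, SE 0.21), again also without them (1.35). It was not called without Trbp-cKO TAC replicate 4 (0.78). The markers' part in the values of Bhlhe41 and the other genes was not tested.

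The interaction gives the log2 fold change of the deletion in TAC hearts minus that in sham hearts. It was called for 4 of the 10 genes, against 0.872% of all genes tested. It was -2.60 (SE 0.39) for Dbp, -1.72 (SE 0.38) for Hlf and -1.30 (SE 0.29) for Tef, and 1.88 (SE 0.28) for Nfil3, so that all 3 PAR bZIP activators and the D-box repressor had values of opposite sign. Ciart (-1.18, SE 0.44), Bhlhe40 (0.83, SE 0.25) and Klf15 (0.74, SE 0.57) were not called. Values were nearer to 0 for Bhlhe41 (-0.43, SE 0.21), Wee1 (-0.26, SE 0.47) and Usp2 (-0.26, SE 0.35). The comparisons share hearts, so their values are not separate evidence. With 1 heart left out, Dbp and Nfil3 were called in every fit, while the number called was 2 without any 1 of the sham hearts of either group, control TAC replicate 3, or Trbp-cKO TAC replicate 3 or 4. Without control TAC replicates 1 and 2, the same 4 genes were called, Dbp at -2.70, Hlf at -2.12, Tef at -1.59 and Nfil3 at 1.76, while Wee1 (-0.84), Usp2 (-0.63) and Klf15 (0.072) were not called.

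**Figure D2:**
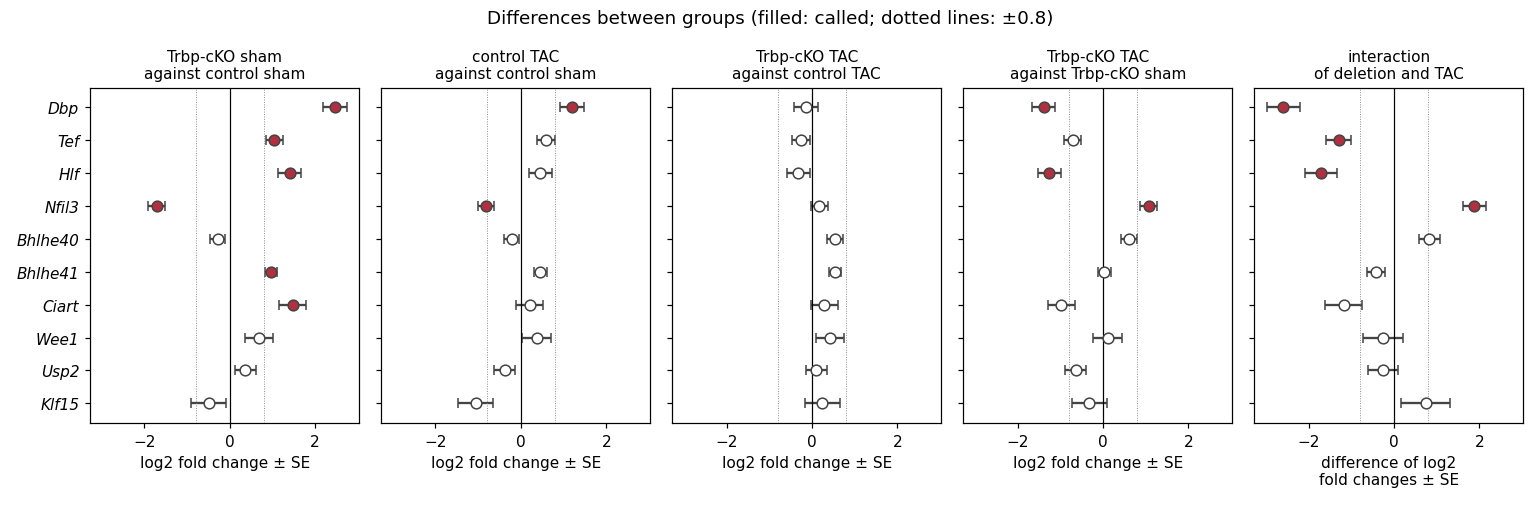
Log2 fold changes (horizontal axes, the same in all panels) with their SE for the 10 clock output genes in 4 comparisons of 4 hearts against 4, and in the last panel the interaction as the difference of 2 log2 fold changes. Filled points were called and dotted lines mark 0.8 on either side of 0; Dbp lay at 2.46 in Trbp-cKO sham against control sham, at 1.20 in control TAC against control sham and at -1.39 for TAC among Trbp-cKO hearts, and no point was filled in the third panel.

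The spread within groups was uneven. In control sham the coefficient of variation of Tef was 6.64%, of Dbp 23.6% and of Ciart 38.7%, and in Trbp-cKO TAC it was 30.6%, 47.6% and 40.4%. Tef had its smallest coefficient, 6.27%, in Trbp-cKO sham. The largest of the 10 genes in any group was that of Klf15 in control TAC, 68.8%, followed by Wee1 in the same group, 56.4%. In both cases replicates 1 and 2 were low and replicates 3 and 4 high.

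Arntl, the partner of CLOCK on E-boxes, showed the same pairs of hearts in reverse. It stood at 16.2, 20.3, 17.2 and 12.5 CPM in control sham and at 8.46, 8.75, 3.00 and 2.65 CPM in control TAC. In Trbp-cKO sham it stood at 2.11, 2.62, 3.16 and 3.18 CPM, and in Trbp-cKO TAC at 3.39, 2.79, 17.9 and 14.9 CPM. Replicates 3 and 4 of Trbp-cKO TAC were thus within or near the control sham range and replicates 1 and 2 near that of Trbp-cKO sham, while the same split in control TAC ran between replicates 1 and 2 (higher Arntl) and 3 and 4 (lower Arntl). Where Arntl was low, Tef was high. Pearson's r between the log2 CPM of Tef and Arntl was -0.97 over the 16 hearts and -0.97 over their deviations from the group means, which do not hold the differences between groups. Over these deviations r with Arntl was -0.89 for Hlf, -0.89 for Usp2, -0.85 for Dbp, -0.71 for Klf15, -0.71 for Ciart, -0.58 for Wee1 and -0.45 for Bhlhe41. It was positive for Bhlhe40 (0.55) and Nfil3 (0.33). The hearts also share a library, its depth and its cell composition across genes, so these values describe the 16 libraries only.

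**Figure D3:**
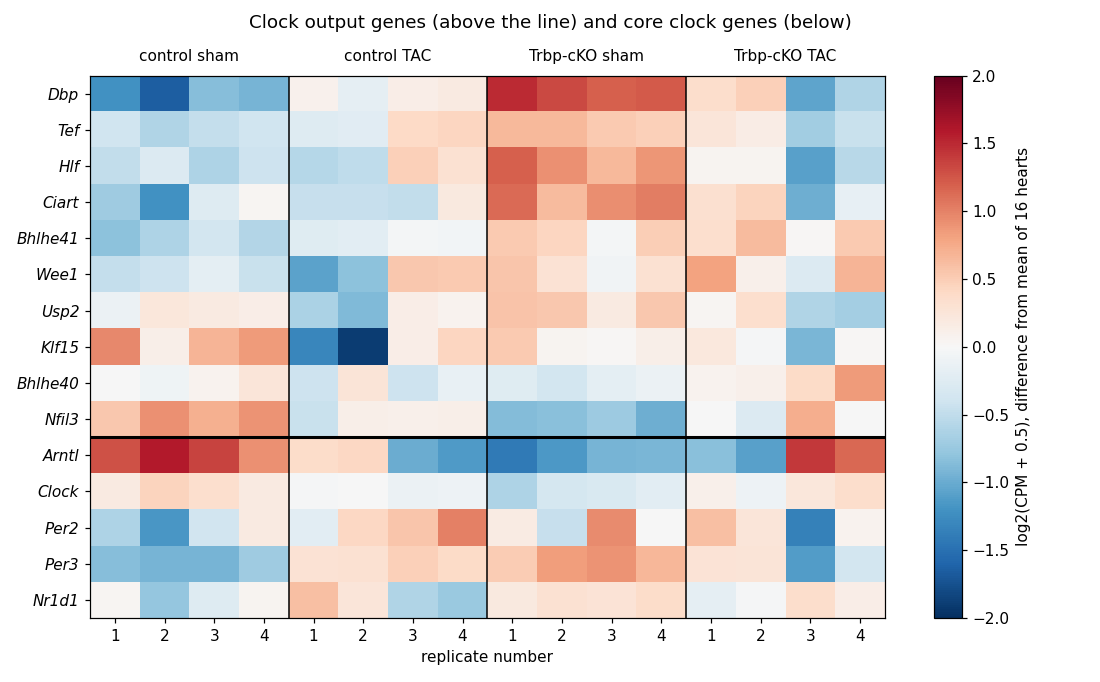
Level of each gene in each heart as log2(CPM + 0.5) minus its mean over the 16 hearts (colour, from -2 to 2), with hearts in columns by group and replicate number and genes in rows, clock output genes above the line and 5 core clock genes below it. Trbp-cKO sham is red for Dbp, Tef, Hlf and Ciart and blue for Nfil3 and Arntl, and within Trbp-cKO TAC replicate 3 is blue for Dbp, Tef, Hlf and Ciart and red for Arntl.

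Among themselves, the 10 genes gave 45 pairs. Over the deviations from group means, r was above 0 in 30 pairs and below 0 in 15, from -0.64 (Bhlhe40 with Usp2) to 0.91 (Tef with Hlf). Other high values were those of Usp2 with Hlf (0.89), Wee1 with Klf15 (0.86), Usp2 with Tef (0.85), Dbp with Ciart (0.85), Tef with Klf15 (0.80) and Dbp with Tef (0.80). Dbp and Nfil3 gave -0.94 over all 16 hearts and -0.63 over the deviations, and Tef and Nfil3 gave -0.81 and -0.29. Both values of Nfil3 with the PAR bZIP genes lay further from 0 over all hearts than within groups. Klf15 gave -0.03 with Dbp over 16 hearts and 0.52 over the deviations, since its group means ran in another order than those of Dbp.

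**Figure D4:**
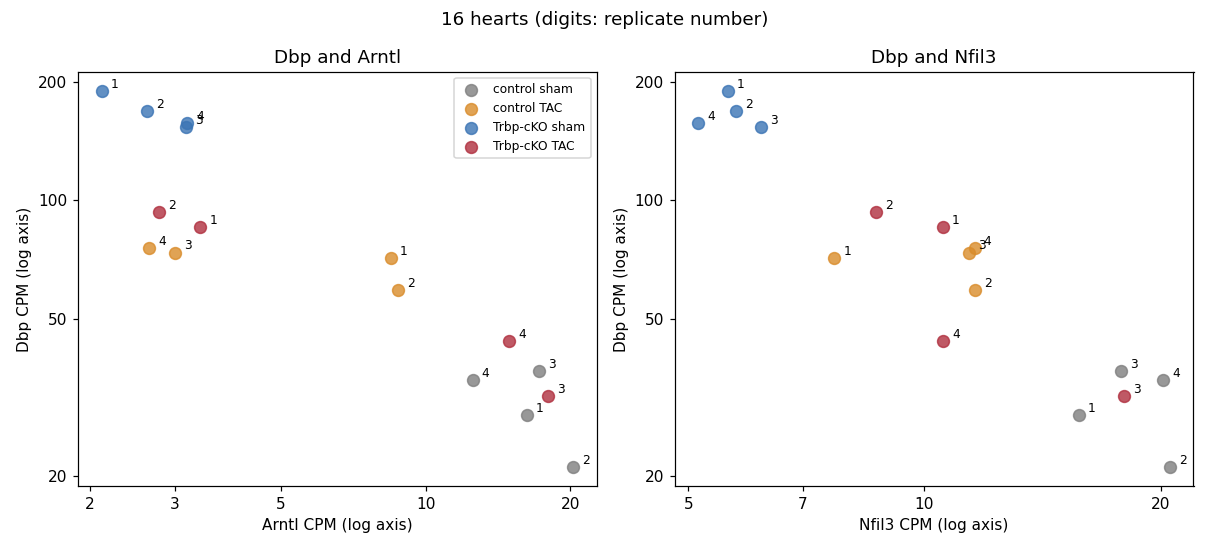
Dbp CPM (vertical, log axis) against Arntl CPM (left panel, horizontal, log axis) and Nfil3 CPM (right panel, horizontal, log axis) in the 16 hearts, coloured by group, with replicate numbers beside the points. Trbp-cKO sham hearts lie at the upper left of both panels and control sham hearts at the lower right, and Trbp-cKO TAC replicate 3 (31.8 CPM Dbp, 17.9 CPM Arntl) lies among the control sham hearts in both.

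The core clock genes were also listed with earlier results of these hearts known. In Trbp-cKO sham against control sham, 1 of the 3 activators and 1 of the 5 Period and Cryptochrome genes were called. Of the 5 nuclear receptor genes and the 6 kinase and ubiquitin ligase genes, 0 were called, against 0.967% of all genes tested. Those called were Arntl at a log2 fold change of -2.57 (SE 0.55) and Per3 at 1.61 (SE 0.23). Per3 was also called higher in control TAC against control sham (1.24, SE 0.22), where 3.75% of all genes tested were called. It was called lower after TAC among Trbp-cKO hearts (-0.88, SE 0.22), where 5.57% were. Both were the directions of Dbp. Npas2, which can stand in for CLOCK, was called lower in control TAC against control sham (-1.31, SE 0.37). In Trbp-cKO sham against control sham Npas2 was at -1.31 (SE 0.37) and Clock at -0.67 (SE 0.11), both without overlap and neither called, Clock by the size of its fold change alone. Arntl was called higher after TAC among Trbp-cKO hearts (1.81, SE 0.54), although its groups overlapped. The interaction, called for 0.872% of all genes tested, was called for Arntl (3.35, SE 0.76), Clock (0.89, SE 0.16) and Per3 (-2.12, SE 0.32). Without control TAC replicates 1 and 2, Npas2 (-1.62) was no longer called, while Per3 after TAC in control hearts (1.31) and the interactions of Arntl (4.36), Clock (0.93) and Per3 (-2.20) still were. With 1 heart left out, the call of Arntl was lost in 8 of 16 fits for the deletion in sham hearts, in 10 for TAC in Trbp-cKO hearts and in 12 for the interaction, that of Npas2 in 12 and that of Per3 after TAC in Trbp-cKO hearts in 4, while the other calls of Per3 and that of Clock were lost in 0. Per2 stood at 13.3 to 34.6 CPM in control sham and 21.9 to 58.9 CPM in Trbp-cKO sham, and Nr1d1, the repressor of Arntl, at 48.1 to 85.6 and 94.8 to 107 CPM. Neither was called in any comparison. Within groups, r with Nr1d1 was 0.28 for Bhlhe40 and below 0 for the other 9 output genes, down to -0.79 for Wee1.

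Of 16 other genes known to follow the clock, 1 rose and 1 fell in Trbp-cKO sham against control sham, where 0.967% of all genes tested were called, the tetraspanin gene Tspan4 (log2 fold change 1.16, SE 0.15) and Cdkn1a (-1.65, SE 0.32), which encodes the cell cycle inhibitor p21. In control TAC against control sham, with 3.75% of all genes called, Tspan4 rose (1.06, SE 0.15) and Cdkn1a (-1.19, SE 0.31) and Pdk4 (-1.44, SE 0.33), a kinase that shuts off pyruvate oxidation, fell. After TAC among Trbp-cKO hearts, with 5.57% called, Cdkn1a rose (1.79, SE 0.32) and Ucp3, a mitochondrial carrier, fell (-2.80, SE 0.39), and among TAC hearts, with 2.46% called, Cdkn1a rose with the deletion (1.33, SE 0.31). The interaction, called for 0.872% of all genes, was called for Cdkn1a (2.98, SE 0.44) and Tspan4 (-1.01, SE 0.21). Without control TAC replicates 1 and 2, Tspan4 (0.98) was still called after TAC in control hearts and Cdkn1a (-1.32) and Pdk4 (-1.09) were not, Cdkn1a was no longer called for the deletion in TAC hearts (1.45), and of the interactions that of Cdkn1a (3.10) was called and that of Tspan4 (-0.94) was not. Leaving out 1 heart put Cdkn1a at 0.80 to 1.49 for the deletion in TAC hearts, with the call lost without control TAC replicate 1 or 3. Its calls were lost in 3 of 16 fits for the deletion in sham hearts and in 5 for TAC in control hearts, that of Pdk4 in 3 and the interaction of Tspan4 in 9.

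Of 7 genes linked to Klf15, 2 fell in control TAC against control sham, where 3.75% of all genes tested were called, Pdk4 and Bckdhb (-1.01, SE 0.27), a subunit of the complex that breaks down branched-chain keto acids. Bckdhb was also called lower after TAC among Trbp-cKO hearts (-0.89, SE 0.27), where 5.57% were. Its call was lost in 8 of 16 fits for TAC in control hearts and in 12 for TAC in Trbp-cKO hearts when 1 heart was left out. It stood at 12.9 and 12.0 CPM in control TAC replicates 1 and 2 and at 30.6 and 32.0 CPM in 3 and 4, against 41.9 to 48.0 CPM in control sham, and without replicates 1 and 2 its value after TAC in control hearts was -0.50 and not called. Kcnip2, a subunit of the transient outward potassium channel, was called higher with the deletion among TAC hearts (1.47, SE 0.39), against 2.46% of all genes, with overlapping groups, and the call was lost in 12 of 16 fits with 1 heart left out. It stood at 51.9 and 41.1 CPM in control TAC replicates 1 and 2 and at 128 and 151 CPM in 3 and 4, and without the first pair it was at 0.87 and not called, while Bckdhb was then called lower in that comparison (-0.92, SE 0.14).

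The genes most like Dbp were ranked by Pearson's r of log2 CPM among 13547 genes outside the 10 with a symbol and a mean log2 CPM of at least 1. Over the 16 hearts the highest were Per3 (0.92), Nr1d2 (0.88), Gm21992 (0.84), Lrrn4cl (0.84) and Engase (0.83), and the lowest Ypel2 (-0.93), Clock (-0.92), Arntl (-0.91), Adam19 (-0.90) and Thbs1 (-0.87). Over the deviations from group means they were Cnksr1 (0.84), Cnksr2 (0.83), Zfp493 (0.82), Per3 (0.81) and Zkscan7 (0.80), and at the other end Ypel2 (-0.91), Tprgl (-0.86), Yy1 (-0.85) and Mfsd1 (-0.85). Per3 and Ypel2 appeared in both rankings.

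Several of these genes share exon bases with a gene on the opposite strand, and whether the counting used strand is not given in the sources used here, so reads there could have been counted to either gene. The overlap was 539 bases (18.0% of its exons) for Dbp with Sphk2 and 1280 bases (19.1%) for Bhlhe41 with Gm43909. It was 193 bases for Tef, 118 bases for Bhlhe40 and 200 bases for Usp2, and Hlf, Nfil3, Ciart, Wee1 and Klf15 had no such partner in the annotation. Sphk2 stood at 20.0 to 28.2 CPM in the 16 hearts, and its mean was 26.2 CPM in control sham and 22.7 CPM in Trbp-cKO sham, where Dbp was highest. Gm43909 stood at 0.37 to 0.83 CPM in control sham and at 0.89 to 2.29 CPM in the other hearts, against 19.4 to 53.8 CPM for Bhlhe41.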

How the data were processed

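RNA was sequenced from 16 mouse ventricles, 4 per group, as paired reads. The submitters' processing notes name cutadapt 2.3, FastQC, HISAT2 2.1.0, StringTie 1.3.4 and GRCm38, and the authors deposited whole-number counts per gene made with StringTie's conversion script, without normalization or pooling. The annotation release, the read length given to that script and the use of strand are not given in the sources used here, so the deposited counts may exceed read pairs by a common factor. Symbols and positions came from GENCODE M21 on GRCm38, which placed 55480 of 55573 genes.

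The counts were fitted here with edgeR 4.0.16 in R 4.3.3 (filterByExpr, TMM, robust quasi-likelihood fit, Benjamini-Hochberg adjustment over 19955 genes), with thresholds of 0.05 and 0.8 from the study's methods. The 10 genes and all lists were chosen with earlier results of these data known. The text names all 10, called genes of the clock, Klf15, glucocorticoid, immediate early, hypoxia and heart stress lists, Arntl, Per2 and Nr1d1, and the 5 genes most and least correlated with Dbp in each ranking, of which 1 is not reported here. Overlap partners were named after their values were seen. Correlations used log2(CPM + 0.5). The fit was tested on simulated data. Alternatives were library size scaling, edgeR's exact test, DESeq2 1.42.0, fits of 2 groups, other filters, halved counts, a replicate block, other fold thresholds and leaving out each heart. Leaving out control TAC replicates 1 and 2 together, or mitochondrial transcripts, was chosen after seeing the data.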

Additional observations from a re-analysis of the deposited data

Results flagged for a closer look

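In 3 of the 40 sets of 4 hearts (10 genes in 4 groups), 1 heart stood apart from the others of its group by Dixon's test, which flags about 1 set in 20 by chance. Nfil3 was at 7.67 CPM in control TAC replicate 1, against 11.4 to 11.6 CPM in the other 3 hearts. Ciart was at 10.2 CPM in control TAC replicate 4, against 6.09 to 6.28 CPM in the others. Usp2 was at 72.0 CPM in Trbp-cKO sham replicate 3, against 92.8 to 95.1 CPM in the others.

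By the interaction term of the edgeR fit, the difference that came with the deletion was not the same after TAC as after sham surgery for Dbp (-2.60), Tef (-1.30), Hlf (-1.72) and Nfil3 (1.88). The calls of Tef and Hlf were lost when any 1 of several hearts was left out, while those of Dbp and Nfil3 were kept with each heart left out.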

How the results depend on the processing

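Under the alternatives, 16 of 1280 log2 fold changes of the 10 genes took the other sign and 107 of 138 counts of called genes stayed within 1.5 times the value reported. The called count in control TAC against control sham was 1 with at least 1 CPM in at least 4 hearts, 1 with a threshold of 1 on the fold change and 0 without control TAC replicates 1 and 2. The interaction was called for 2 genes with no filter on low counts. Without a threshold on the fold change, 1 gene was called for the deletion in TAC hearts and 5 for TAC in Trbp-cKO hearts. With 1 heart left out, counts ran from 0 to 3 for TAC in control hearts, from 3 to 6 for the deletion in sham hearts, from 3 to 6 for TAC in Trbp-cKO hearts and from 2 to 4 for the interaction, and stayed at 0 for the deletion in TAC hearts.

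Hearts share only a replicate number: deviations of same-numbered hearts in different groups had r from -0.43 to 0.21, and 1 of 16 hearts correlated best with its own number. With the replicate number as a block, the called counts were 1 for TAC in control hearts, 3 for the deletion in sham hearts and 2 for the interaction.

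For the deletion in TAC hearts, leaving out both control TAC replicates 1 and 2 gave log2 fold changes of -0.16 for Wee1, -0.28 for Usp2 and -0.43 for Klf15. Leaving out 1 heart gave -0.11 to 0.26 for Usp2, -0.059 to 0.65 for Klf15, -0.38 to 0.085 for Dbp and -0.090 to 0.30 for Nfil3. It gave -0.013 to 0.43 for Ciart with TAC in control hearts, and -0.084 to 0.14 for Bhlhe41 and -0.066 to 0.28 for Wee1 with TAC in Trbp-cKO hearts. None of these values was called. The cause of these changes was not tested. With no TMM factors, the median over all genes tested moved by 0.098 (deletion, sham hearts) and 0.14 (deletion, TAC hearts), and none of the 10 genes changed sign.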

Other observations

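The shares of all 19955 genes tested that were called were 3.75% for TAC in control hearts, 0.967% for the deletion in sham hearts, 2.46% for the deletion in TAC hearts, 5.57% for TAC in Trbp-cKO hearts and 0.872% for the interaction, and the counts of listed genes below stand beside these. Among 9 genes of the glucocorticoid response, 2 fell in Trbp-cKO sham against control sham, Cdkn1a and Errfi1 (log2 fold change -2.09, SE 0.40), which encodes an inhibitor of the EGF receptor. The same 2 were called lower for TAC in control hearts, Errfi1 at -2.09 (SE 0.40) and Cdkn1a at -1.19 (SE 0.31), and neither was called there without control TAC replicates 1 and 2 (-2.07 and -1.32). After TAC among Trbp-cKO hearts 3 of the 9 rose, Cdkn1a, Fkbp5 (1.87, SE 0.40), a chaperone partner of the glucocorticoid receptor, and the zinc finger gene Zbtb16 (1.77, SE 0.45). The groups overlapped for Fkbp5, at 20.8 to 121.7 CPM in Trbp-cKO TAC and 14.4 to 22.3 CPM in Trbp-cKO sham. The interaction was called for Cdkn1a and for Errfi1 (2.54, SE 0.55), that of Errfi1 not without these 2 hearts (2.52). Cdkn1a was also called higher for the deletion in TAC hearts, as the only one of the 9. The call of Errfi1 was lost in 3 of 16 fits with 1 heart left out for the deletion in sham hearts and in 10 for the interaction, and that of Zbtb16 in 5.

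Among 9 immediate early genes, Egr2 was called lower in Trbp-cKO sham against control sham (-2.54, SE 0.58). Control sham replicate 2 stood at 38.2 CPM and the other 3 at 4.09 to 8.35 CPM, and leaving out 1 heart gave -2.86 to -1.30, with the call lost without any 1 of 9 hearts, control sham replicate 2 among them. Egr2 (2.21, SE 0.58) and Atf3 (1.40, SE 0.32) rose after TAC among Trbp-cKO hearts, and with 1 heart left out the call of Egr2 was lost in 4 of 16 fits. The interaction was called for Egr2 (3.81, SE 0.80) and Atf3 (2.099, SE 0.45), and for neither without control TAC replicates 1 and 2 (3.91 and 2.22). With 1 heart left out, these interactions ran from 2.56 to 4.12 and from 1.63 to 2.29, and each call was lost in 10 of 16 fits.

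Of 10 genes of the hypoxia response, Ankrd37 was called higher for TAC in control hearts (1.20, SE 0.34), but not without control TAC replicates 1 and 2 (0.59) and not in 12 of 16 fits with 1 heart left out. The glucose transporter gene Slc2a1 was called higher for the deletion in TAC hearts (1.02, SE 0.13), for TAC in Trbp-cKO hearts (0.95, SE 0.13) and in the interaction (1.02, SE 0.18). Bnip3 was called higher for the deletion in TAC hearts (0.87, SE 0.18), but not without these 2 hearts (0.56) nor without either of them, when Slc2a1 still was (0.99), as was its interaction (0.997).

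Of 5 heart stress genes, the natriuretic peptide genes Nppa (2.00, SE 0.27) and Nppb (1.09, SE 0.25) and Ankrd1 (1.48, SE 0.14) were called higher for TAC in control hearts, and without control TAC replicates 1 and 2 Nppa (1.59) and Ankrd1 (1.46) still were and Nppb (0.65) was not. For TAC in Trbp-cKO hearts Nppa rose by 3.29 (SE 0.29), Nppb by 2.88 (SE 0.27) and Ankrd1 by 1.33 (SE 0.14) on the log2 scale. Nppa (2.09, SE 0.27) and Nppb (1.39, SE 0.25) were called for the deletion in TAC hearts, and Nppb in the interaction (1.79, SE 0.36), and all 3 calls held without these 2 hearts, at 2.48, 1.82 and 2.23. With 1 heart left out, the call of Nppb was lost in 6 of 16 fits for the interaction and in 6 for TAC in control hearts. These lists were drawn up with earlier results of these hearts known, and the values are a description.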
